A study of Mus musculus with 8 samples.

Results

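The SLC25 family is the largest family of solute carriers of the mitochondrial inner membrane, and its members named Slc25a were followed here in round spermatids, the haploid germ cells that follow meiosis. Members were taken as all genes whose symbol starts with Slc25a and that have a probe set assigned to 1 gene, with the brightest such probe set standing for the gene. This gave 44 members among 18193 genes measured on the arrays. The study compared round spermatids of BrdtΔBD1 mutant mice with round spermatids of mice labelled control, on 4 Affymetrix arrays per group. In the mutant allele the testis-specific chromatin reader Brdt lacks its first bromodomain, the part that binds acetylated histones. Both groups were adult 129 Sv/Ev mice of 2 to 4 months, each array held cells pooled from 7 animals, and the labels give neither the genotype of the controls nor a value for the purity of the cells. The question of the comparison is how the loss of that bromodomain alters the transcripts of these cells. Where values of single arrays follow, they stand in the order of the replicate numbers 1 to 4 and are log2 intensities.

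Mitochondrial carriers move solutes that the inner membrane would otherwise hold back. The ADP/ATP and phosphate carriers feed ATP synthase and hand its ATP to the cytosol, the di- and tricarboxylate and aspartate/glutamate carriers connect the citric acid cycle with the cytosol, and others bring in amino acids, nucleotides, cofactors or iron. Male germ cells of the mouse use a carrier of their own for ADP and ATP, Slc25a31, in place of Slc25a4 and Slc25a5 of somatic cells. Slc25a5 lies on the X chromosome, which is silenced during meiosis in the male.

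The 3 carriers that trade ADP for ATP, Slc25a4, Slc25a5 and Slc25a31, were 6.40-fold, 3.31-fold and 2.13-fold higher in mutant than in control round spermatids. Slc25a10, the dicarboxylate carrier, was 2.73-fold lower, and Slc25a36, a pyrimidine nucleotide carrier, was 2.49-fold higher. The first 4 of these passed the test where arrays of the same replicate number were compared with each other, and Slc25a36 did not (adjusted p = 0.126, limma). None passed over all 8 arrays with group as the only term, and the first 4 passed there when trended and robust variances or array weights were used. With the mean of Sertoli cell markers in the model the log2 differences were -0.19 for Slc25a4, 0.11 for Slc25a5 and 1.33 for Slc25a31, of which none passed (adjusted p = 0.958, 0.956 and 0.258, limma). In the same model that of Slc25a10 was -0.95 and that of Slc25a36 was 0.38, and neither passed (adjusted p = 0.597 and 0.903, limma). Without control arrays 1 and 3, which stood apart in RNA quality, that of Slc25a31 was 0.65 (adjusted p = 0.208, limma). These fits had no term for the replicate number, so they do not say whether the calls made with it would stand.

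No member passed the test in the fit with group as the only term (limma, Benjamini-Hochberg adjusted p under 0.05), with adjusted p between 0.0536 and 0.958 over the 44 members. Of all genes, 1.86% passed as higher and 1.85% as lower in the mutant. Arrays of the same replicate number deviated together, so a second fit took the number as a block. With the block 4 members passed as higher (Slc25a31, Slc25a5, Slc25a4 and Slc25a45) and 3 as lower (Slc25a10, Slc25a44 and Slc25a25), which is 9.09% and 6.82% of the members. The same fit called 6.60% of all genes higher and 4.94% lower, so the members' shares stood close to those of all genes. At an unadjusted p under 0.05 in the fit without the block, 6 members were higher and 4 lower (13.6% and 9.09%), against 11.0% and 9.16% of all genes.

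The targeted gene and the markers of other cells were read first. Brdt measured 11.09, 10.68, 10.29 and 10.62 on the mutant arrays, against 12.13, 12.24, 11.72 and 12.25 on the control arrays, a difference of -1.41 (standard error, SE, 0.19, adjusted p = 0.00735, limma). That is the brightest probe set of Brdt, and the mean of all its probe sets differed by -0.76 (adjusted p = 0.0466, limma). Where its probes lie relative to the deletion was not determined here. The difference of the brightest probe set did not pass with the Sertoli marker mean in the model (adjusted p = 0.155) or without control arrays 1 and 3 (adjusted p = 0.0587). The mean of 20 round spermatid markers lay between 13.46 and 13.72 on the mutant arrays and between 13.47 and 13.72 on the control arrays. The mean of 22 Sertoli cell markers was 6.998, 5.72, 7.32 and 6.89 on the mutant arrays, against 4.86, 4.95, 5.65 and 5.52 on the control arrays, higher in the mutant by 1.49 (exact two-sided permutation test, p = 0.0286, the smallest that 4 against 4 arrays allow). The permutations took no account of the replicate numbers. Of these 22 markers 6 passed as higher, or 13 with the block, among them Vim, Fabp5 and Cldn11. Of the 22, 7 had a mean under 4 in both groups, among them Sox9, a transcription factor of Sertoli cells at all ages, at 3.80 in mutant and 3.80 in control arrays, and Amh, a hormone that Sertoli cells largely cease to make at puberty, at 1.95 in mutant and 1.97 in control arrays. The mean of 28 spermatocyte markers lay between 8.67 and 9.53 on mutant and between 8.70 and 9.05 on control arrays, and that of 21 spermatogonia markers between 4.95 and 5.61 on mutant and between 4.41 and 4.70 on control arrays. The mean of 11 Leydig cell markers lay between 4.77 and 5.23 on mutant and between 4.30 and 4.53 on control arrays, and that of 24 peritubular, vascular and blood cell markers between 3.31 and 3.92 on mutant and between 3.19 and 3.31 on control arrays. Among these 4 lists 0, 1, 2 and 1 markers passed as higher and none as lower, or 4, 6, 2 and 1 as higher and 2, 0, 0 and 0 as lower with the block. Of the round spermatid markers none passed, or 0 as higher and 1 as lower with the block. The difference between the 3' and 5' control probe sets of Gapdh, a sign of RNA quality, was 0.60, 0.33, 0.94 and 0.59 on the mutant arrays, against 1.68, 0.48, 2.05 and 0.46 on the control arrays, so that control arrays 1 and 3 stood apart. In such bulk samples fewer cells of a type and less RNA per cell cannot be told apart.

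The ADP/ATP carriers were the group in which all measured members were higher in the mutant. All 3 of them passed with the block, and the mouse promoters of these 3 genes are shown with that of the dicarboxylate carrier Slc25a10, the member with the smallest p, since they carry the main differences. Each window runs from 250 bases before the start of transcription to 50 bases after it and is printed on the strand of the gene, from RefSeq on the build GRCm38.p6. The windows lie at chr3:40708621-40708920 on the + strand for Slc25a31, chr8:46211013-46211312 on the - strand for Slc25a4, chrX:36795347-36795646 on the + strand for Slc25a5 and chr11:120491587-120491886 on the + strand for Slc25a10. Capitals mark TCCCGC, read on both strands, the core of the E2F sites to which the repressor E2F6 binds when it silences Slc25a31 in mouse somatic cells.
Slc25a31: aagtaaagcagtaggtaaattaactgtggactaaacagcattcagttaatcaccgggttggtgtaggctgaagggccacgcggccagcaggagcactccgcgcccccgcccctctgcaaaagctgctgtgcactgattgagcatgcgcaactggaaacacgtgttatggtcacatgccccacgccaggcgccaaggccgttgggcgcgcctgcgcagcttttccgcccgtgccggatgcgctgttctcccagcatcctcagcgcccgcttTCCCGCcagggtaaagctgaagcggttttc
Slc25a4: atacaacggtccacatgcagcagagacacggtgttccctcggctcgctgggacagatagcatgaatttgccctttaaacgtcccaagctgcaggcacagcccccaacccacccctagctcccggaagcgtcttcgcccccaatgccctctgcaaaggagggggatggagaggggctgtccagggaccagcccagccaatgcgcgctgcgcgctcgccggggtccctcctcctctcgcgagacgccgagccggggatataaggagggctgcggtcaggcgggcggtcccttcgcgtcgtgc
Slc25a5: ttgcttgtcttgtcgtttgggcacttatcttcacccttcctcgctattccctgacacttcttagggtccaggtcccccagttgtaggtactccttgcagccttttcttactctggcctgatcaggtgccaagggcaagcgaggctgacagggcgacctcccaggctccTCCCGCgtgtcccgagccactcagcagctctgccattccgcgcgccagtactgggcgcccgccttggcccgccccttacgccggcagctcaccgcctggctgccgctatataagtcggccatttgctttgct
Slc25a10: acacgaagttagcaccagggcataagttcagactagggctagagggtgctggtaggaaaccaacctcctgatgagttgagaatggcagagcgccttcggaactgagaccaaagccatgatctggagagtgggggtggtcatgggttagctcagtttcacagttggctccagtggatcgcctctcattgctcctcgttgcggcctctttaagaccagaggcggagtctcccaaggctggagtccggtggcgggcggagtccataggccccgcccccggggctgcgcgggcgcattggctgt

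The windows of Slc25a31 and Slc25a5 held 1 TCCCGC each, which began at base 21 after the start in Slc25a31 and at base -82 relative to it in Slc25a5, and those of Slc25a4 and Slc25a10 held none. Windows were found for 34 of the 44 members, 43 windows in all, of which 25.6% held TCCCGC, against 20.0% of 32851 windows of all genes. GGGCGG, the GC box, was found in 86.0% of the members' windows, against 35.7% of all windows. CCAAT was in 48.8% of the members' windows, against 37.4% of all, and TGACGTCA, the cAMP response element, in 4.65%, against 1.79%. TATAA was in 9.3% of the members' windows, against 24.9% of all, and the windows of Slc25a4 and Slc25a5 held 1 each. Both strands were read for each motif, and TCCCGC and GGGCGG can share letters where they lie on opposite strands. The members' windows were richer in CG dinucleotides, with a median of 16 per window, against 7 over all windows, and the part of this in the motif shares was not tested. The motifs were chosen with the sequences in view.

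Slc25a31, the ADP/ATP carrier of male germ cells, measured 10.64, 11.14, 10.64 and 10.91 on the mutant arrays, against 9.05, 10.22, 9.54 and 10.13 on the control arrays. All mutant arrays lay above all control arrays, and the lowest control values were those of arrays 1 and 3, the arrays that stood apart in the Gapdh probe sets. The mutant mean was 10.83 ± 0.24 and the control mean 9.74 ± 0.55 (SD, n = 4 each), a 2.13-fold higher level. The log2 difference of 1.09 had an SE of 0.26 and an adjusted p of 0.0568, or 0.0128 with the replicate block (limma). Without control arrays 1 and 3 the difference was 0.65 (adjusted p = 0.208, limma), and with the Gapdh 3' minus 5' difference in the model it was 0.77 (adjusted p = 0.0966, limma). With the Sertoli marker mean in the model it was 1.33 (adjusted p = 0.258, limma).

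Slc25a4, the ADP/ATP carrier of heart and muscle, measured 8.93, 5.42, 8.25 and 8.17 on the mutant arrays, against 4.16, 4.74, 4.95 and 6.20 on the control arrays. Mutant array 2 lay below control array 4, and the other mutant arrays lay above all controls. The means were 7.69 ± 1.55 in mutant and 5.01 ± 0.86 in control arrays (SD, n = 4 each), a 6.40-fold higher level in the mutant, and the difference of 2.68 (SE 0.74) had an adjusted p of 0.083, or 0.0421 with the replicate block (limma). Slc25a5, the ADP/ATP carrier of proliferating cells, measured 8.28, 6.25, 7.99 and 7.72 on the mutant arrays, against 5.59, 5.56, 5.85 and 6.34 on the control arrays. Mutant array 2 again lay just below control array 4. Its means were 7.56 ± 0.90 in mutant and 5.83 ± 0.36 in control arrays (SD, n = 4 each), a 3.31-fold higher level in the mutant, with a difference of 1.73 (SE 0.41) and an adjusted p of 0.0554, or 0.0234 with the replicate block (limma).

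Mutant array 2, the lowest mutant array for Slc25a4 and Slc25a5, was also the lowest mutant array in the Sertoli marker mean. Without it the difference of Slc25a4 was 3.44 (adjusted p = 0.00529, limma) and that of Slc25a5 was 2.16 (adjusted p = 0.00235, limma). Neither passed when any other single array was left out (adjusted p 0.11 to 0.194 for Slc25a4, 0.0984 to 0.141 for Slc25a5, limma). With the Sertoli marker mean in the model the difference of Slc25a4 was -0.19 (adjusted p = 0.958, limma) and that of Slc25a5 was 0.11 (adjusted p = 0.956, limma). The Sertoli marker means of the 2 groups did not overlap, so genotype and marker level cannot be told apart in these arrays. The spermatogonia and Leydig marker means did not overlap either, nor, narrowly, did those of peritubular, vascular and blood cells. Those lists were not used in a model. Slc25a31 did not follow the Sertoli marker mean within the mutant group, where array 2 had the lowest Sertoli marker mean and the highest Slc25a31.

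**Figure D1:**
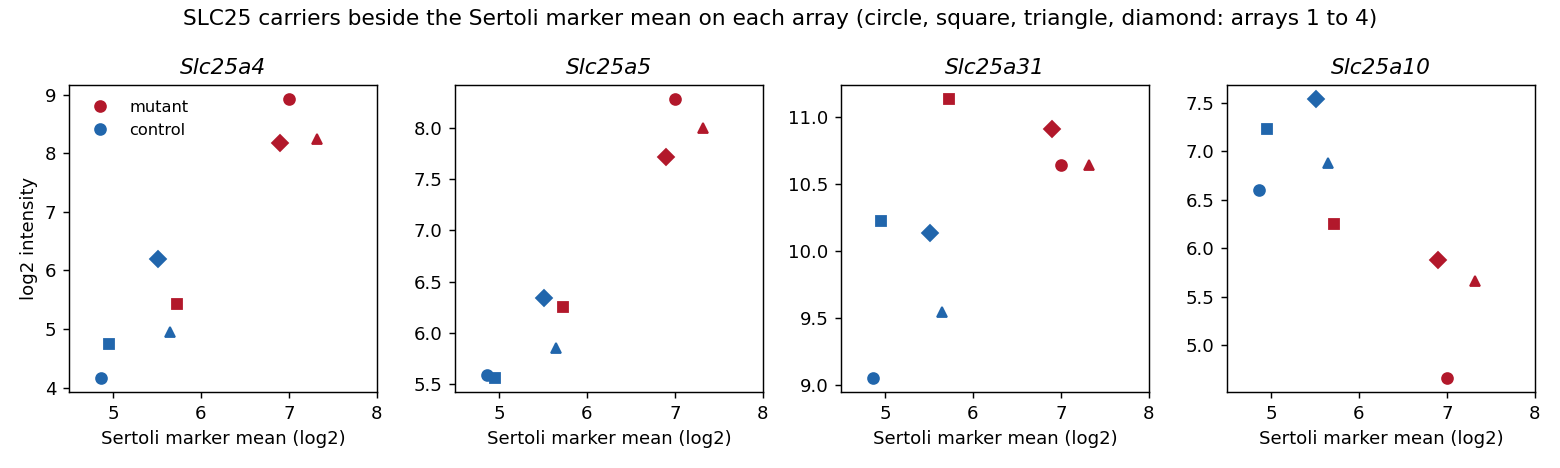
Log2 intensity of Slc25a4, Slc25a5, Slc25a31 and Slc25a10 (vertical axes) against the mean of 22 Sertoli cell markers on the same array (horizontal axes, log2), with mutant arrays in red and control arrays in blue and the marker shape giving the array number. Mutant array 2, at a marker mean of 5.72, lies beside the control arrays for Slc25a4 and Slc25a5 and above them for Slc25a31.

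Slc25a3, which imports phosphate for ATP synthesis, measured 11.86, 11.60, 11.59 and 11.60 on the mutant arrays, against 11.57, 11.09, 11.47 and 11.43 on the control arrays. The groups did not overlap, but only narrowly, and the difference was 0.27 (SE 0.13, adjusted p = 0.307, limma). The other members of its group exchange ATP-Mg for phosphate, most of them under the control of calcium. Slc25a25 measured 8.23, 7.71, 8.49 and 9.50 on the mutant arrays, against 9.02, 8.88, 8.76 and 9.97 on the control arrays. The groups overlapped, but each mutant array was below the control array of its number, with differences of -1.17 to -0.27. The difference of -0.68 had an SE of 0.39 and an adjusted p of 0.388, and an SE of 0.16 and an adjusted p of 0.0488 with the replicate block (limma). It was -1.51 with the Sertoli marker mean in the model (adjusted p = 0.373, limma) and -0.20 with the spermatocyte marker mean (adjusted p = 0.828, limma). Adjusted over all probe sets, the same probe set did not pass with the block (adjusted p = 0.0592, limma). The dimmer probe sets of Slc25a25 differed by -0.27 (SE 0.22) and -0.09 (SE 0.12).

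Slc25a54, a relative of Slc25a24, measured 9.33, 9.37, 8.99 and 9.30 on the mutant arrays, below the 10.01, 9.49, 9.53 and 9.49 of the control arrays. The difference of -0.39 (SE 0.15) did not pass without or with the block (adjusted p = 0.207 and 0.119, limma). Slc25a23, Slc25a24 and Slc25a41 differed by 0.10, 0.20 and 0.33, and none of them passed.

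Among the di- and tricarboxylate carriers, Slc25a10, which exchanges malate and succinate for phosphate, was lower in the mutant. It measured 4.66, 6.25, 5.66 and 5.88 on the mutant arrays, against 6.60, 7.23, 6.88 and 7.54 on the control arrays. All mutant arrays lay below all control arrays, and each was lower than the control array of its number, with differences of -1.94 to -0.98. The means of 5.61 ± 0.68 in mutant and 7.06 ± 0.41 in control arrays (SD, n = 4 each) gave a 2.73-fold lower level in the mutant, a difference of -1.45 (SE 0.34) with an adjusted p of 0.0536, or 0.00900 with the replicate block (limma). Without mutant array 2, the highest mutant array, the difference was -1.66 (adjusted p = 0.0234, limma). It did not pass when any other single array was left out (adjusted p between 0.0593 and 0.142, limma). With the Sertoli marker mean in the model it was -0.95 (adjusted p = 0.597, limma), and the mutant array with the highest Slc25a10 was the one with the lowest marker mean. Slc25a1, the citrate carrier, averaged 7.19 ± 0.54 in mutant and 6.79 ± 0.65 in control arrays, and Slc25a11, the 2-oxoglutarate carrier, 5.60 ± 0.43 in mutant and 5.39 ± 0.23 in control arrays (SD, n = 4 each). Neither passed, with adjusted p of 0.598 and 0.66 (limma), so that only 1 of the 3 carriers of this group passed with the block.

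**Figure D2:**
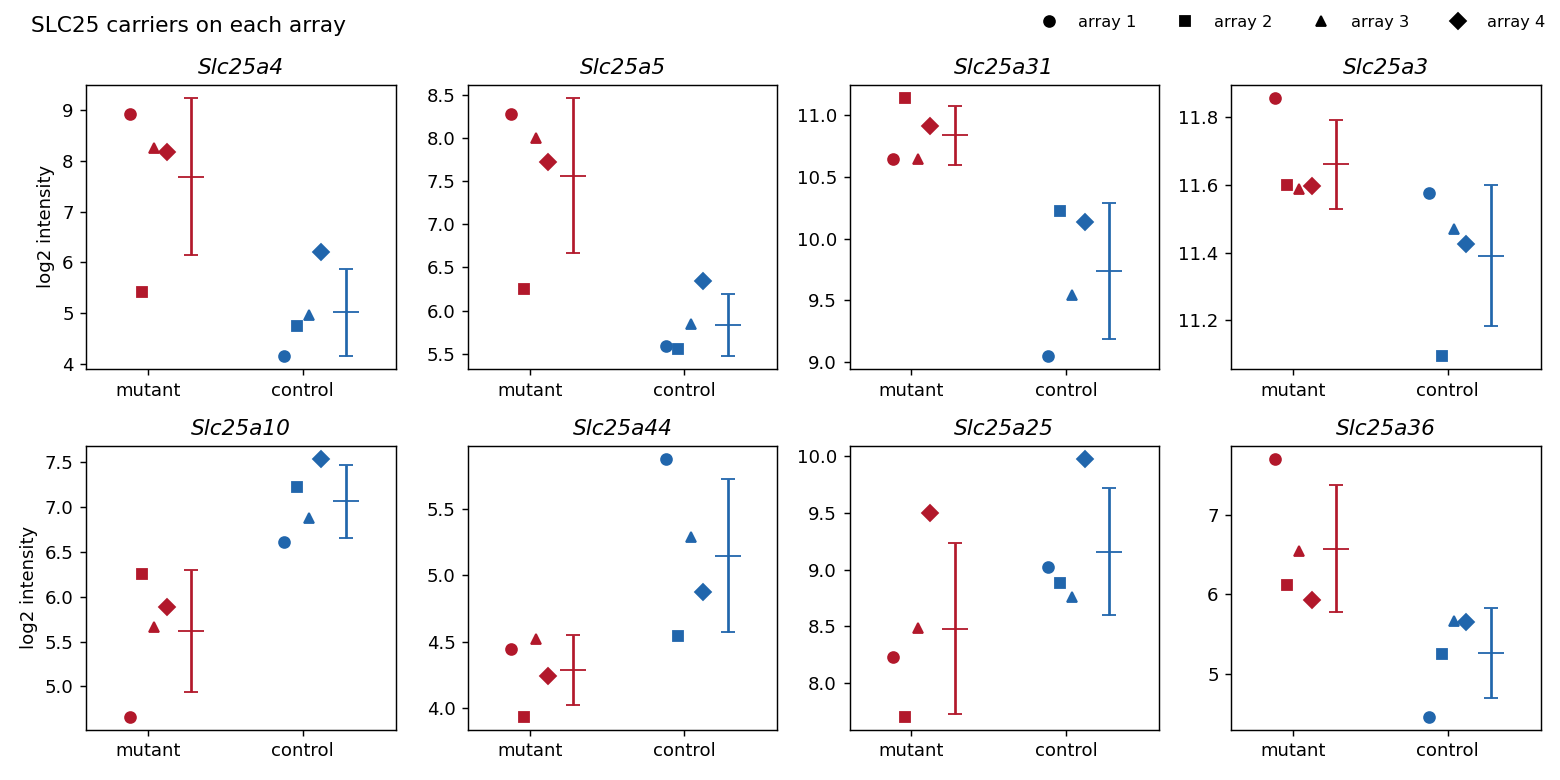
Log2 intensity (vertical axes, each panel on its own scale) of 8 SLC25 carriers on the 4 mutant arrays (red, left) and the 4 control arrays (blue, right), with the marker shape giving the array number and the bars the mean and SD of each group. Mutant array 2 lies at 5.42 for Slc25a4, below control array 4 at 6.20, while Slc25a31, Slc25a3, Slc25a10, Slc25a44 and Slc25a36 show no overlap between the groups.

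The amino acid carriers held 9 measured members, of which 1 passed with the block. Slc25a44, the carrier of branched-chain amino acids, measured 4.45, 3.93, 4.52 and 4.24 on the mutant arrays, against 5.88, 4.54, 5.29 and 4.87 on the control arrays. The highest mutant array stood just below the lowest control array, and control arrays 1 and 3 were the highest of all. The difference was -0.86 (SE 0.27, adjusted p = 0.126, or 0.0257 with the replicate block, limma). It was -0.42 without control arrays 1 and 3 (adjusted p = 0.419, limma) and -0.54 with the Gapdh 3' minus 5' difference in the model (adjusted p = 0.258, limma).

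Slc25a13, 1 of a pair of aspartate/glutamate carriers of the malate-aspartate shuttle, measured 3.12, 2.94, 2.85 and 3.23 on the mutant arrays, against 2.66, 2.71, 2.60 and 2.72 on the control arrays. The groups did not overlap, at a level near the lower end of the scale, and the difference of 0.37 (SE 0.12) did not pass (adjusted p = 0.123, or 0.0788 with the replicate block, limma). Its partner Slc25a12 differed by -0.23 (SE 0.20, adjusted p = 0.576, limma). Slc25a38, the glycine carrier of haem synthesis, was lower in all 4 pairs of arrays, with 6.01, 5.02, 5.57 and 6.09 on the mutant arrays, against 7.38, 5.18, 6.03 and 6.47 on the control arrays, but control array 1 alone stood above the rest and the difference of -0.59 (SE 0.44) did not pass (adjusted p = 0.506, or 0.122 with the replicate block, limma). The ornithine carriers Slc25a2 and Slc25a15, the glutamate carriers Slc25a18 and Slc25a22 and the carrier of basic amino acids Slc25a29 differed by between -0.14 and 0.04, with adjusted p between 0.648 and 0.958 (limma). Slc25a2 was measured well above the lower end, at 11.01 ± 0.08 in mutant and 11.05 ± 0.12 in control arrays (SD, n = 4 each), and the 95% interval of its difference ran from -0.29 to 0.20.

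The carriers of nucleotides, cofactors and glutathione numbered 10, and none passed with or without the block. Slc25a36, a pyrimidine nucleotide carrier, measured 7.71, 6.12, 6.55 and 5.93 on the mutant arrays, against 4.46, 5.26, 5.66 and 5.65 on the control arrays. The groups did not overlap, and array number 1 was both the highest mutant and the lowest control array. The 2.49-fold higher level in the mutant, a difference of 1.32 (SE 0.41), had an adjusted p of 0.12, and an SE of 0.46 and an adjusted p of 0.126 with the replicate block (limma). With the Sertoli marker mean in the model the difference was 0.38 (adjusted p = 0.903, limma). Slc25a33, the other pyrimidine nucleotide carrier, averaged 12.28 ± 0.06 in mutant and 12.42 ± 0.13 in control arrays (SD, n = 4 each) and was lower in all 4 pairs, with differences of -0.27 to -0.05, without passing (adjusted p = 0.542, limma).

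Slc25a26, which imports S-adenosylmethionine, the methyl donor of mitochondria, measured 5.88, 5.28, 5.84 and 5.95 on the mutant arrays, against 6.56, 5.97, 6.02 and 6.40 on the control arrays. No mutant array reached a control array, and the difference of -0.50 (SE 0.19) stood just outside the threshold with the block (adjusted p = 0.196 without and 0.0533 with it, limma). It passed where the deposited values were quantile normalized again, at -0.68 (adjusted p = 0.0401, limma). The second probe set of Slc25a26, at 4.73 in mutant and 4.78 in control arrays, overlapped between the groups and differed by -0.05 (SE 0.19). Slc25a17, a peroxisomal carrier of cofactors, was higher in all 4 pairs, by 0.49 on average (SE 0.22, adjusted p = 0.255, limma), with the largest value, 4.86, on mutant array 2. Slc25a51, the NAD carrier, was also higher in all 4 pairs, by 0.28 (SE 0.16, adjusted p = 0.388, limma). Slc25a39, the glutathione carrier, averaged 13.85 ± 0.22 in mutant and 13.94 ± 0.19 in control arrays (SD, n = 4 each), with a 95% interval of the difference from -0.42 to 0.25. The coenzyme A carriers Slc25a16 and Slc25a42, the folate and FAD carrier Slc25a32 and Slc25a40, a relative of Slc25a39, differed by 0.32, -0.05, 0.24 and 0.19.

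The carnitine/acylcarnitine carrier Slc25a20, which admits fatty acids for oxidation, measured 7.51, 7.80, 8.14 and 7.89 on the mutant arrays, against 8.49, 7.64, 8.32 and 8.34 on the control arrays. The groups overlapped through control array 2, and the difference of -0.36 (SE 0.21) did not pass (adjusted p = 0.38, limma). The iron importers mitoferrin-1 (Slc25a37) and mitoferrin-2 (Slc25a28) differed by -0.03 and -0.13. Slc25a37 stayed near the lower end of the scale in both groups, at 2.99 ± 0.10 in mutant and 3.02 ± 0.07 in control arrays (SD, n = 4 each).

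Of the carriers that resemble uncoupling proteins, Slc25a30 averaged 7.49 ± 0.69 in mutant and 8.10 ± 0.26 in control arrays, Slc25a27 (UCP4) 4.48 ± 0.75 in mutant and 3.91 ± 0.17 in control arrays, and Slc25a14 (UCP5) 3.92 ± 0.34 in mutant and 4.10 ± 0.38 in control arrays (SD, n = 4 each). None passed, with adjusted p of 0.329, 0.39 and 0.712 (limma). Of the members outside the groups above, among them the outer membrane protein Slc25a46, only Slc25a45 passed with the block. It measured 3.87, 3.47, 4.15 and 3.63 on the mutant arrays, all above the 3.20, 3.07, 3.31 and 3.34 of the control arrays. The difference of 0.55 (SE 0.16, adjusted p = 0.0951, or 0.0435 with the replicate block, limma) was 0.05 with the Sertoli marker mean in the model (adjusted p = 0.967, limma). It was the only 1 of the 17 members with a mean below 4 that passed with the block, and at such levels the deposited values are compressed towards a floor. Slc25a35 spread most widely among the remaining members, with 7.88, 5.10, 6.51 and 7.46 on the mutant arrays, against 7.60, 5.82, 5.65 and 6.41 on the control arrays, and its difference of 0.36 had an SE of 0.63 (adjusted p = 0.802, limma).

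**Figure D3:**
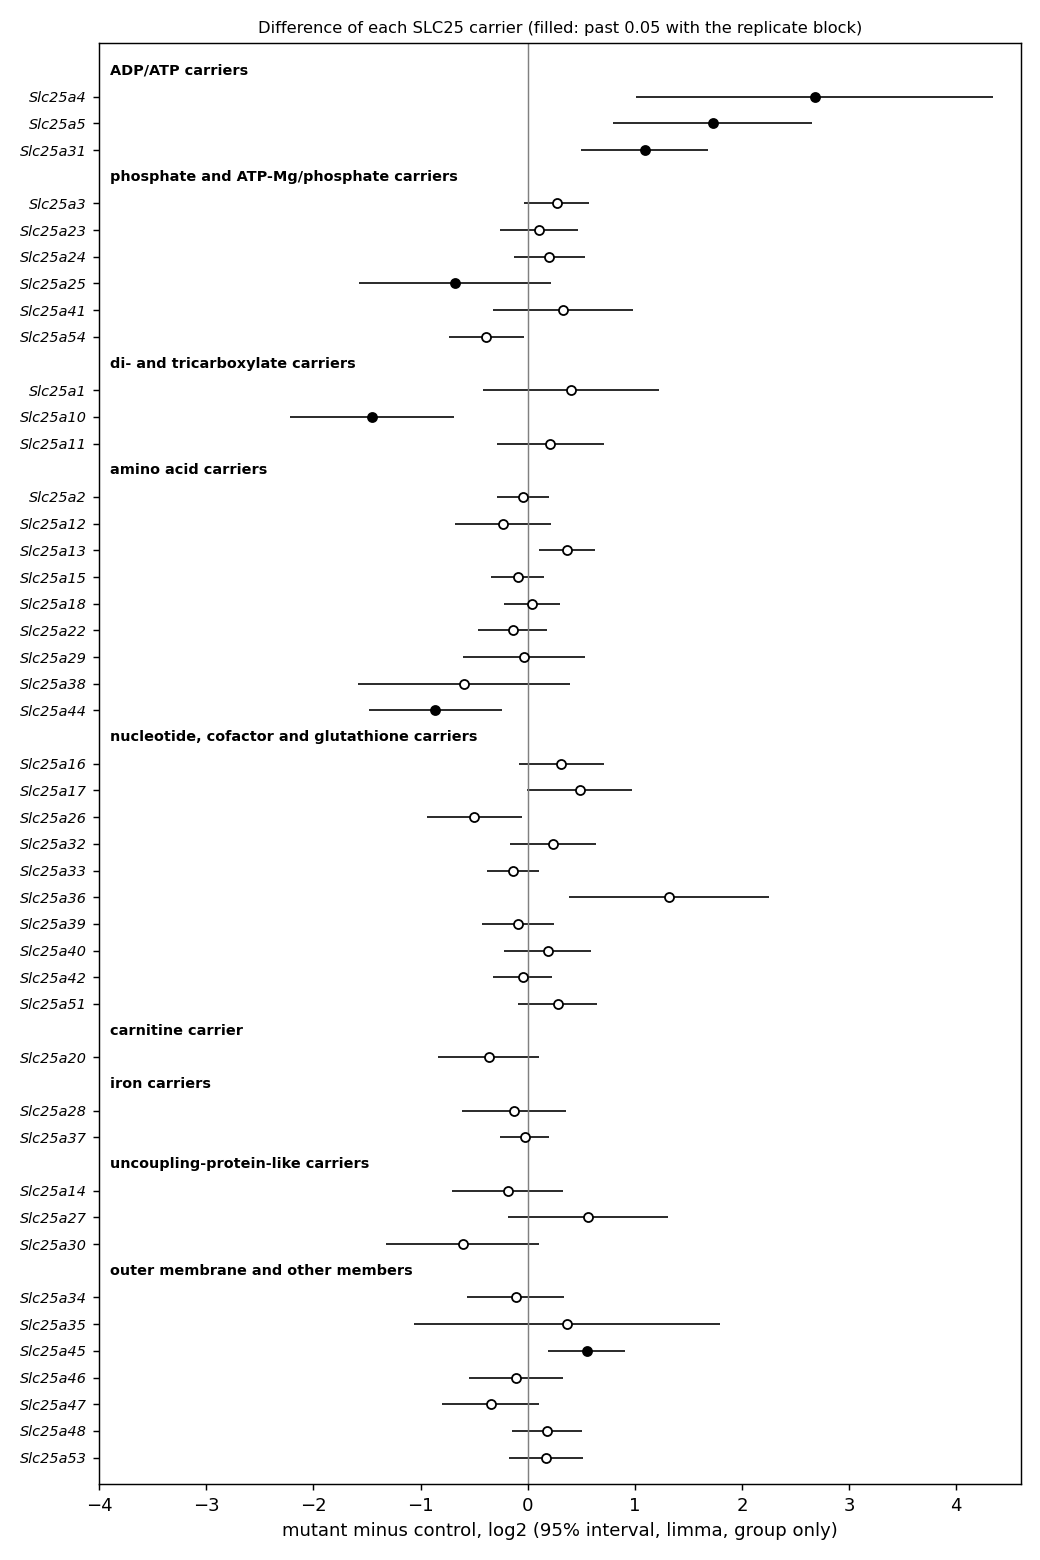
Mutant minus control difference (horizontal axis, log2) of each of the 44 SLC25 carriers with its 95% interval from limma with group as the only term, grouped by what they carry. Filled points are the 7 members that passed with the replicate block, and the ADP/ATP carriers lie furthest above 0 as a group, at 2.68, 1.73 and 1.09.

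Across the family, 22 members had a positive and 22 a negative difference, with a median of 0.01, against -0.02 over all genes. The median absolute difference was 0.27 in the members and 0.18 over all genes, and 5 members (11.4%) differed by at least 1 in log2, against 5.88% of all genes. These 5 were Slc25a4, Slc25a5, Slc25a10, Slc25a36 and Slc25a31. For 9 members no mutant array overlapped the controls, of which 5 were higher (Slc25a31, Slc25a3, Slc25a13, Slc25a36 and Slc25a45) and 4 lower (Slc25a54, Slc25a10, Slc25a44 and Slc25a26), or 11.4% and 9.09%. Over all genes 6.15% were higher without overlap and 6.49% lower. Within the 4 pairs of arrays, 9 members were higher in every pair and 10 lower in every pair (20.5% and 22.7%), against 17.7% and 18.9% of all genes, and 25 were mixed.

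The 44 members were read by 93 probe sets, 21 of them by 1 probe set and 23 by several, at most 8. Fitted over all probe sets, 1 of the 93 passed as higher and 0 as lower, where 0.717% and 0.702% of all probe sets passed in the 2 directions. That probe set belongs to Slc25a5, with 8.05, 6.02, 7.93 and 7.28 on the mutant arrays, against 5.06, 4.24, 5.13 and 5.53 on the control arrays, without overlap. Its difference was 2.33 (SE 0.45, limma, adjusted p = 0.048 over probe sets). When the replicate block was added 7 of the 93 passed as higher and 3 as lower, where 3.92% and 2.50% of all probe sets passed in the 2 directions. The probe sets that stand for Slc25a4, Slc25a45 and Slc25a25 were not among them (adjusted p = 0.0525, 0.0501 and 0.0592 over probe sets, limma). Dimmer probe sets of Slc25a4 did pass there (adjusted p = 0.0375 and 0.0488, limma). Of the 4 probe sets of Slc25a4, 3 differed by between 2.68 and 3.34, and the dim other one by 0.07. Of the 8 of Slc25a5, 4 differed by between 1.69 and 2.33 and the dimmer 4 by between 0.23 and 0.53. Of these probe sets, 1 of Slc25a4 and 6 of Slc25a5 are of the kind whose probes can also read related sequences, so Slc25a4, Slc25a5 and the Slc25a5 pseudogene may share signal, and their levels are uncertain to that degree.

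The second probe set of Slc25a10 differed by -1.17 (SE 0.37), beside -1.45 for the first. The dimmer probe sets of Slc25a44 differed by -0.28 (SE 0.15) and 0.06 (SE 0.11), beside -0.86 for the brightest. Those of Slc25a36 differed by 0.53 (SE 0.23) and -0.003 (SE 0.12), beside 1.32. All of these dimmer probe sets averaged below 4 and overlapped between the groups. The second probe set of Slc25a20, with 6.59, 6.80, 6.89 and 6.68 on the mutant arrays, against 7.45, 7.21, 7.09 and 7.40 on the control arrays, did not overlap between the groups and differed by -0.55 (SE 0.12, adjusted p = 0.0655 over probe sets, limma). The second probe set of Slc25a51, with 4.41, 3.65, 4.74 and 3.74 on the mutant arrays, against 2.83, 3.24, 3.43 and 3.45 on the control arrays, did not overlap either and differed by 0.90 (SE 0.26, adjusted p = 0.143 over probe sets, limma). The brightest probe set of Slc25a30 differed by -0.60, while the next 2 in brightness differed by 0.53 and 0.78. A test of whether the probe sets of 1 gene moved differently (diffSplice, among probe sets that averaged 4 or more) covered 10 members, of which 0 passed and 1, Slc25a30, had an unadjusted p under 0.05 (adjusted p = 0.476, limma). Of the 2870 genes so tested, 0.906% passed.

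**Figure D4:**
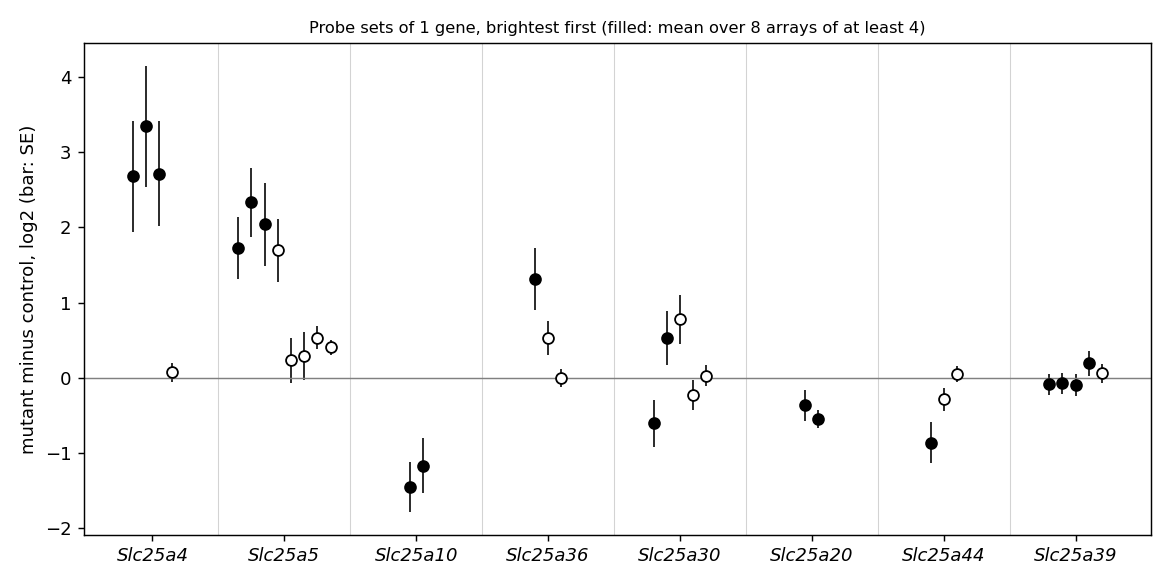
Mutant minus control difference (vertical axis, log2, bars are SE) of every probe set of 8 SLC25 carriers, from the brightest on the left to the dimmest on the right within each gene, filled where the mean over the 8 arrays was at least 4. The 3 brighter probe sets of Slc25a4 lie between 2.68 and 3.34 and its dim one at 0.07, and those of Slc25a30 lie on both sides of 0.

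Genes that work with the carriers were read from 5 lists. Beside the counts of each list, 1.86% of all genes passed as higher and 1.85% as lower, or 6.60% and 4.94% with the block. Among 16 other mitochondrial carriers, porins and subunits of the pyruvate carrier none passed, and 1 was higher with the block, with a median difference of 0.10. Vdac1, the porin of the outer membrane, measured 7.22, 5.88, 6.92 and 6.14 on the mutant arrays, against 4.22, 5.54, 5.46 and 5.56 on the control arrays. The groups did not overlap, and the difference of 1.34 (SE 0.38) did not pass (adjusted p = 0.0927, limma). With the Sertoli marker mean in the model it was 0.20 (adjusted p = 0.941, limma). Vdac2 and Vdac3, the other porins, differed by -0.21 and 0.11 (adjusted p = 0.397 and 0.641, limma).

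Of 35 genes of mitochondrial protein import 1 passed as higher and 0 as lower, or 4 and 0 with the block, with a median difference of 0.08. That gene was Tomm34, a cytosolic helper of import, with 6.99, 7.21, 6.56 and 6.43 on the mutant arrays, against 5.72, 5.05, 5.52 and 6.01 on the control arrays, a difference of 1.23 (SE 0.24, adjusted p = 0.0319, limma). It did not pass when mutant array 1 or 3 or control array 1, 2 or 3 was left out, with adjusted p between 0.0591 and 0.0808 (limma), and it passed under 11 of the 20 alternatives in all. Of 6 genes of the calcium uniporter none passed in either fit, with a median difference of 0.32.

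Of 31 enzymes of the malate-aspartate, citrate and glycerophosphate shuttles and the citric acid cycle 1 rose and 1 fell, or 7 and 2 with the block, with a median difference of 0.16. Me3, a mitochondrial malic enzyme that turns malate into pyruvate, measured 3.98, 4.24, 4.37 and 4.14 on the mutant arrays, against 6.64, 6.08, 6.23 and 6.01 on the control arrays. It was 4.16-fold lower in the mutant, a difference of -2.06 (SE 0.16, adjusted p = 0.000877, limma), and it passed under all 20 alternatives tried, among them -1.92 with the Sertoli marker mean in the model (adjusted p = 0.0444, limma). Malate is also a substrate of Slc25a10. Glud1, glutamate dehydrogenase, was higher in the mutant by 0.91 (SE 0.17, adjusted p = 0.0291, limma), with 4.88, 4.14, 4.27 and 4.22 on the mutant arrays, against 3.41, 3.39, 3.42 and 3.65 on the control arrays. It did not pass without mutant array 3 or without any 1 of the 4 control arrays (adjusted p between 0.0622 and 0.0794, limma), and it passed under 9 of 19 alternatives.

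Of 18 genes of the carnitine shuttle and mitochondrial fatty acid oxidation 1 passed as higher and 0 as lower, or 5 and 0 with the block, with a median difference of 0.02. That gene was Hadhb, a subunit of the trifunctional protein of fatty acid oxidation, with 11.50, 11.42, 11.51 and 11.47 on the mutant arrays, against 10.97, 10.97, 11.02 and 10.91 on the control arrays. Its difference of 0.51 (SE 0.09, adjusted p = 0.025, limma) did not pass when any 1 of mutant arrays 1, 3 and 4 or of the 4 control arrays was left out, with adjusted p between 0.0522 and 0.0858 (limma), and it passed under 5 of 20 alternatives.

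**Figure D5:**
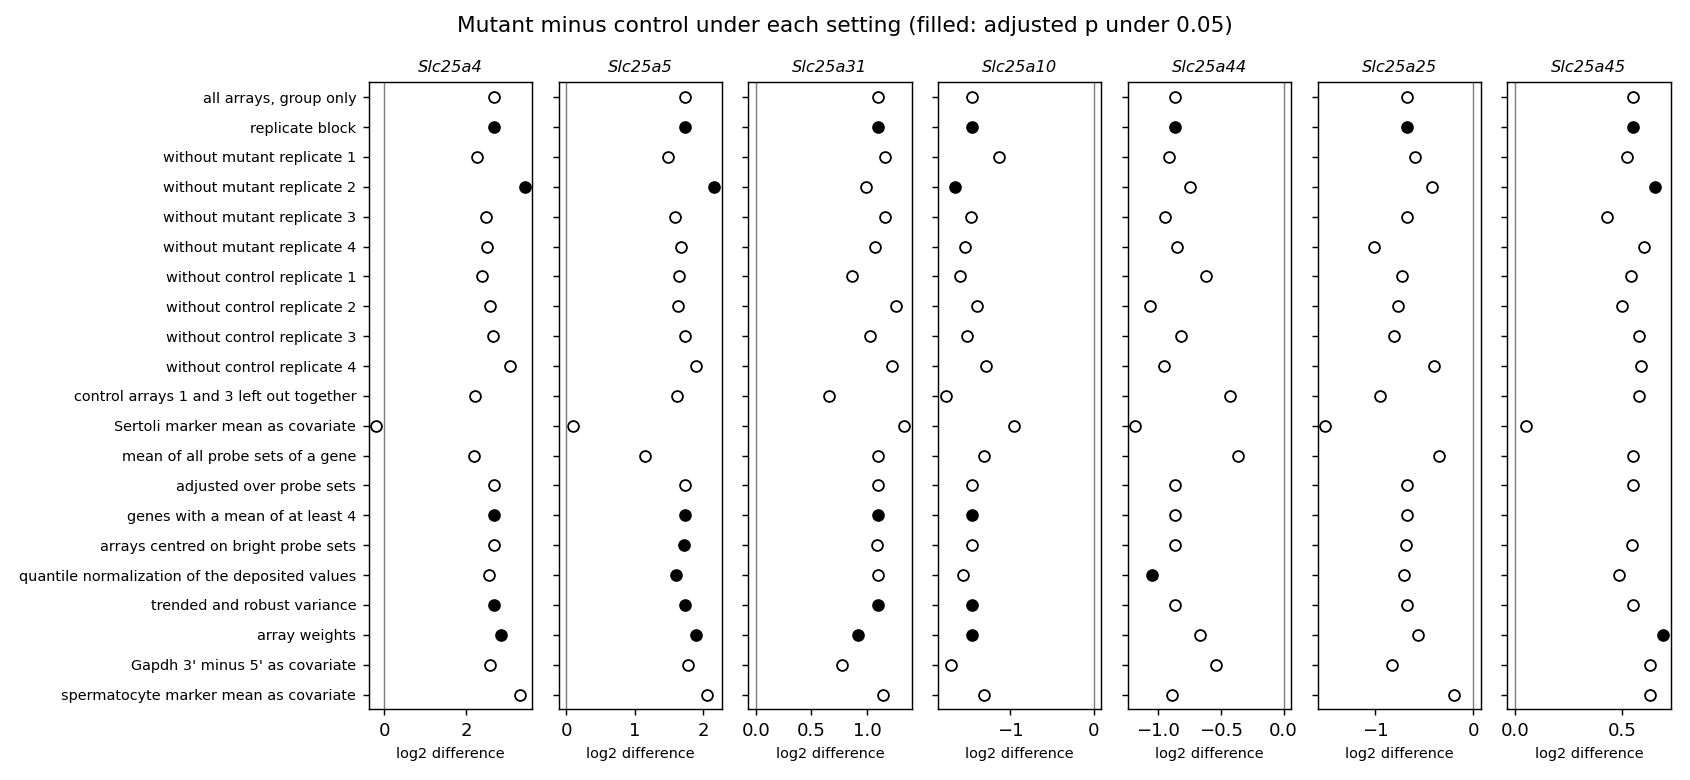
Mutant minus control difference (horizontal axes, log2, each panel on its own scale) of the 7 members that passed with the replicate block, under each setting (rows), filled where the adjusted p over all genes was under 0.05. With the Sertoli marker mean as a covariate Slc25a4 and Slc25a5 lie near 0, at -0.19 and 0.11, while Slc25a31 lies at 1.33, and Slc25a45 has no point where genes with a mean below 4 were left out.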

How the data were processed

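Total RNA of round spermatids separated on a gradient of 2 to 4% bovine serum albumin was hybridised to Affymetrix arrays, 4 mutant and 4 control, each from 7 animals, with groups and replicate numbers taken from the sample titles. The authors deposited log2 intensities per probe set, and GCRMA (background correction by probe sequence, quantile normalization and median polish) and limma are named, without versions, in the submitters' processing notes. The array medians of 3.10 to 3.14 bear out the log2 scale. GCRMA compresses dim probe sets, so folds of weak genes come out small. Precision is limited by the number of arrays. The labels do not say whether pools of the same number shared a preparation day. Without the block the p-values set the group difference against the spread between pools of a group. With it they set that difference against the spread of the differences between pools of the same number.

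Of 45101 probe sets, 64 control probe sets were left out. The platform annotation gives 1 gene for 34945 of the other 45037, several for 932 and none for 9160. Of the probe sets with 1 gene, 34741 were found by Entrez identifier in RefSeq (GRCm38.p6) and took the symbol given there. Each of 18193 genes was represented by its probe set with the highest mean over 8 arrays. Levels of different probe sets were not compared.

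The group difference was fitted with limma 3.58.1 (R 4.3.3) (group as the only term, moderated variances, two-sided, Benjamini-Hochberg over all genes, threshold 0.05). This fit and the test between probe sets were tested on simulated data with independent arrays, and the fit with the block was not. Deviations from the group means correlated between arrays of the same replicate number at 0.331 to 0.562, and between other arrays of different groups at -0.351 to 0.0436, so the numbers were taken as pairs and the fit with the block is printed for the members and gene lists where it changed a call. Alternatives left out each array, left out control arrays 1 and 3, or changed the covariates, the probe sets, the filter, the scaling or the variance model. These were fitted without the block, so they do not test the calls made with it. The Gapdh and the spermatocyte covariate were chosen after seeing the data. The members and all gene lists were chosen with earlier results of these data known. Named with values on every array are the 8 members with the smallest unadjusted p, the ADP/ATP and phosphate carriers, up to 3 genes past the threshold in each pathway list, Brdt and the porins. Further members were given this way after their values were seen (Slc25a25, Slc25a26, Slc25a54, Slc25a38, Slc25a20 and Slc25a35), as were the Sertoli markers named.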

Additional observations from a re-analysis of the deposited data

Results flagged for a closer look

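In 6 of 88 groups of 4 arrays, 1 array stood apart from the other 3 by Dixon's test at the 95% level, which chance does in about 1 in 20 groups. Mutant array 2 was low for Slc25a26 at 5.28 (the others at 5.84 to 5.95), for Slc25a30 at 6.47 (7.75 to 7.94) and for Slc25a53 at 3.47 (3.82 to 3.85). Mutant array 1 was high for Slc25a3 at 11.86, against 11.59 to 11.60 on the other mutant arrays. Control array 1 was high for Slc25a33 at 12.61 (the other controls at 12.34 to 12.36) and for Slc25a54 at 10.01 (9.49 to 9.53). Mutant array 2 had the lowest Sertoli marker mean among the mutant arrays, 5.72, and control array 1 a Gapdh 3' minus 5' difference of 1.68. Their part in these values was not tested.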

How the results depend on the processing

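Under 20 alternatives, 22 of the 44 members kept the sign of their difference and 22 turned in at least 1, none of them at an adjusted p past the threshold. Past the threshold under at least 1 alternative were 8 members, the 7 of the replicate block and Slc25a26, and 36 under none. The count of members, higher and lower, was 0 and 0 with group as the only term. It was 4 and 3 with the replicate block, 3 and 1 among genes with a mean of at least 4, 1 and 0 with arrays centred on bright probe sets, 1 and 2 after quantile normalization, 3 and 1 with trended and robust variances, and 4 and 1 with array weights. It ranged from 0 to 3 and from 0 to 1 when single arrays were left out, and the calls came without mutant array 2 (Slc25a4, Slc25a5, Slc25a45 and Slc25a10). The other alternatives called none.

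Over all genes, 339 were higher and 336 lower. These counts were 1201 and 899 with the block, 18 and 50 without control arrays 1 and 3, 83 and 64 with the Sertoli marker mean, 189 and 239 when adjusted over probe sets, 980 and 675 with array weights, 120 and 140 with the Gapdh difference, and 70 to 755 and 129 to 376 with single arrays left out, with 755 and 376 without mutant array 2. Quantile normalization gave 422 and 618. The median difference of all genes moved by less than 0.1 under every scaling. Of the pathway genes, 3 were higher and 1 lower, which became 17 and 2 with the block, 0 and 1 without control arrays 1 and 3, 5 and 1 with trended variances, 15 and 2 with array weights, 0 and 1 with the Gapdh difference, 2 and 2 with the spermatocyte mean, and 0 to 10 higher and 1 lower with single arrays left out.

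SLC25 probe sets passed as 7 higher and 3 lower with the block, 0 and 0 without control arrays 1 and 3 or with the Sertoli mean, and 0 to 8 higher and 0 to 1 lower with single arrays left out. The test between probe sets called 0 members in all settings. Brdt differed by -1.57 without control arrays 1 and 3 and by -1.19 with the Sertoli mean, and passed under neither. The Sertoli marker difference was 1.29 to 1.83 with single arrays left out, where the exact test cannot go below 0.0571. The causes of these changes were not tested, beyond the fewer arrays or genes that an alternative holds.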
